A study of Mus musculus with 12 samples.

Results

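DNA replication and E2F target genes are described here: 43 genes whose products license, start, copy and package DNA at the G1 to S transition of the cell cycle. They were taken by symbol from a list of licensing, fork, nucleotide and chromatin assembly genes. The rule uses no measured value, but the list was drawn up with earlier results of these data known. All 43 were found among the 19680 genes listed in the deposited count table, and 43 of 43 were among the 11635 genes with enough counts to be tested.

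The libraries come from CJ9, a mouse embryonic stem cell line, either wild type or labelled arid4b∆, a deletion of Arid4b, which encodes a subunit of a SIN3 histone deacetylase complex. Cells of each genotype were directed to endoderm or to mesoderm and sampled on day 5 as bulk total RNA, which gave 4 groups of 3 libraries: wild type endoderm, knockout endoderm, wild type mesoderm and knockout mesoderm. Undifferentiated cells were not analysed here. The labels give neither the number of knockout clones nor whether the 3 libraries of a group were separate cultures, and every p-value here rests on the spread among libraries that could be technical repeats. Arid4b itself was at 41.6, 44.6 and 36.7 CPM (counts scaled to effective library size) in wild type endoderm, 42.7, 51.0 and 44.9 in endoderm libraries labelled knockout, 36.9, 46.4 and 42.8 in wild type mesoderm and 44.7, 41.5 and 47.5 in mesoderm libraries labelled knockout. Its log2 fold change, knockout over wild type, was 0.17 in endoderm (adjusted p = 0.365) and 0.10 in mesoderm (adjusted p = 0.601), so the gene-level count is not lower under the knockout label. Which exons were deleted is not given in the sources used here, and reads outside a deleted stretch would check nothing. Knockout below means the libraries labelled so.

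Each library held 10351074 to 35660108 counts. After the ribosomal RNA precursor Rn45s was left out, 1949299 to 6678893 counts remained. Members had 11 to 1077 counts per library, and 39 of 43 had at least 20 in every library. Fold changes are on the log2 scale with their standard error (SE), and an adjusted p comes from edgeR's quasi-likelihood test, with the Benjamini-Hochberg method applied to all 11635 genes. A signed value given without a unit is a log2 fold change, knockout over wild type. A gene is said to have risen or fallen only where it is under 0.05.

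A cell prepares to copy its DNA in ordered steps. The origin recognition complex with CDC6 and CDT1 loads the MCM ring at origins, CDC45 and the GINS complex turn that ring into the active helicase, and primase with DNA polymerase alpha lays the first primers. PCNA, placed by the RFC clamp loader, then holds the polymerases that copy the leading and lagging strands, and the lagging strand's pieces are trimmed and ligated. Most of these genes are transcribed late in G1 by E2F factors, which pocket proteins such as RB hold in check until then. Mouse embryonic stem cells cycle fast with a short G1 phase, and that phase lengthens as they differentiate.

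In both lineages the members that passed the test were higher in knockout than in wild type, with Lig1 the exception. In endoderm 7 of 43 rose, namely Cdt1, Mcm5, Gins2, Gins4, Pola1, Pola2 and Pole, against a background of 5.78% of all tested genes called higher and 12.7% called in either direction. None was called lower (6.92% of all genes were) by edgeR, by DESeq2 or at an unadjusted p under 0.05, where 18 members were higher and 0 lower in edgeR and 12 higher and 0 lower in DESeq2. In mesoderm 10 of 43 rose, namely Mcm5, Pola2, Pole, Gins2, Pola1, Rpa2, Rfc5, Cdt1, Orc1 and Mcm10, against a background of 8.93% called higher. Lig1 fell there, against 10.2% called lower, and 19.1% of all genes were called in either direction. The median log2 fold change of the members was 0.17 in endoderm and 0.23 in mesoderm, beside -0.00 and 0.01 over all genes tested. Of the 43, 37 lay above 0 in endoderm and 35 in mesoderm, beside 49.5% and 50.7% of all genes.

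The size of these differences was modest. In endoderm the member estimates ran from a log2 fold change of -0.10 (Tk1) to 0.71 (Gins2), and in mesoderm from -0.97 (Lig1) to 0.79 (Gins2). All 3 knockout libraries lay above all 3 wild type libraries for 22 members in endoderm, beside 14.7% of all genes, and for 16 members in mesoderm, beside 15.7%. No member had all 3 knockout libraries below in endoderm (15.5% of all genes did), while 2 did in mesoderm (17.1%), namely Lig1 and Prim2. Between the lineages, 6 members rose in both (Cdt1, Gins2, Mcm5, Pola1, Pola2 and Pole), beside 3.52% of all genes. Gins4 was called in endoderm alone (5.25% of all genes were), 5 members were called in mesoderm alone (11.6%), and 31 were called in neither (75.7%). These splits by call are not tests of a difference between lineages, and in the test of that difference, the interaction, Lig1 passed as 1 of 43 members, beside 1.4% of all genes (0.627% higher and 0.774% lower in endoderm).

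**Figure D1:**
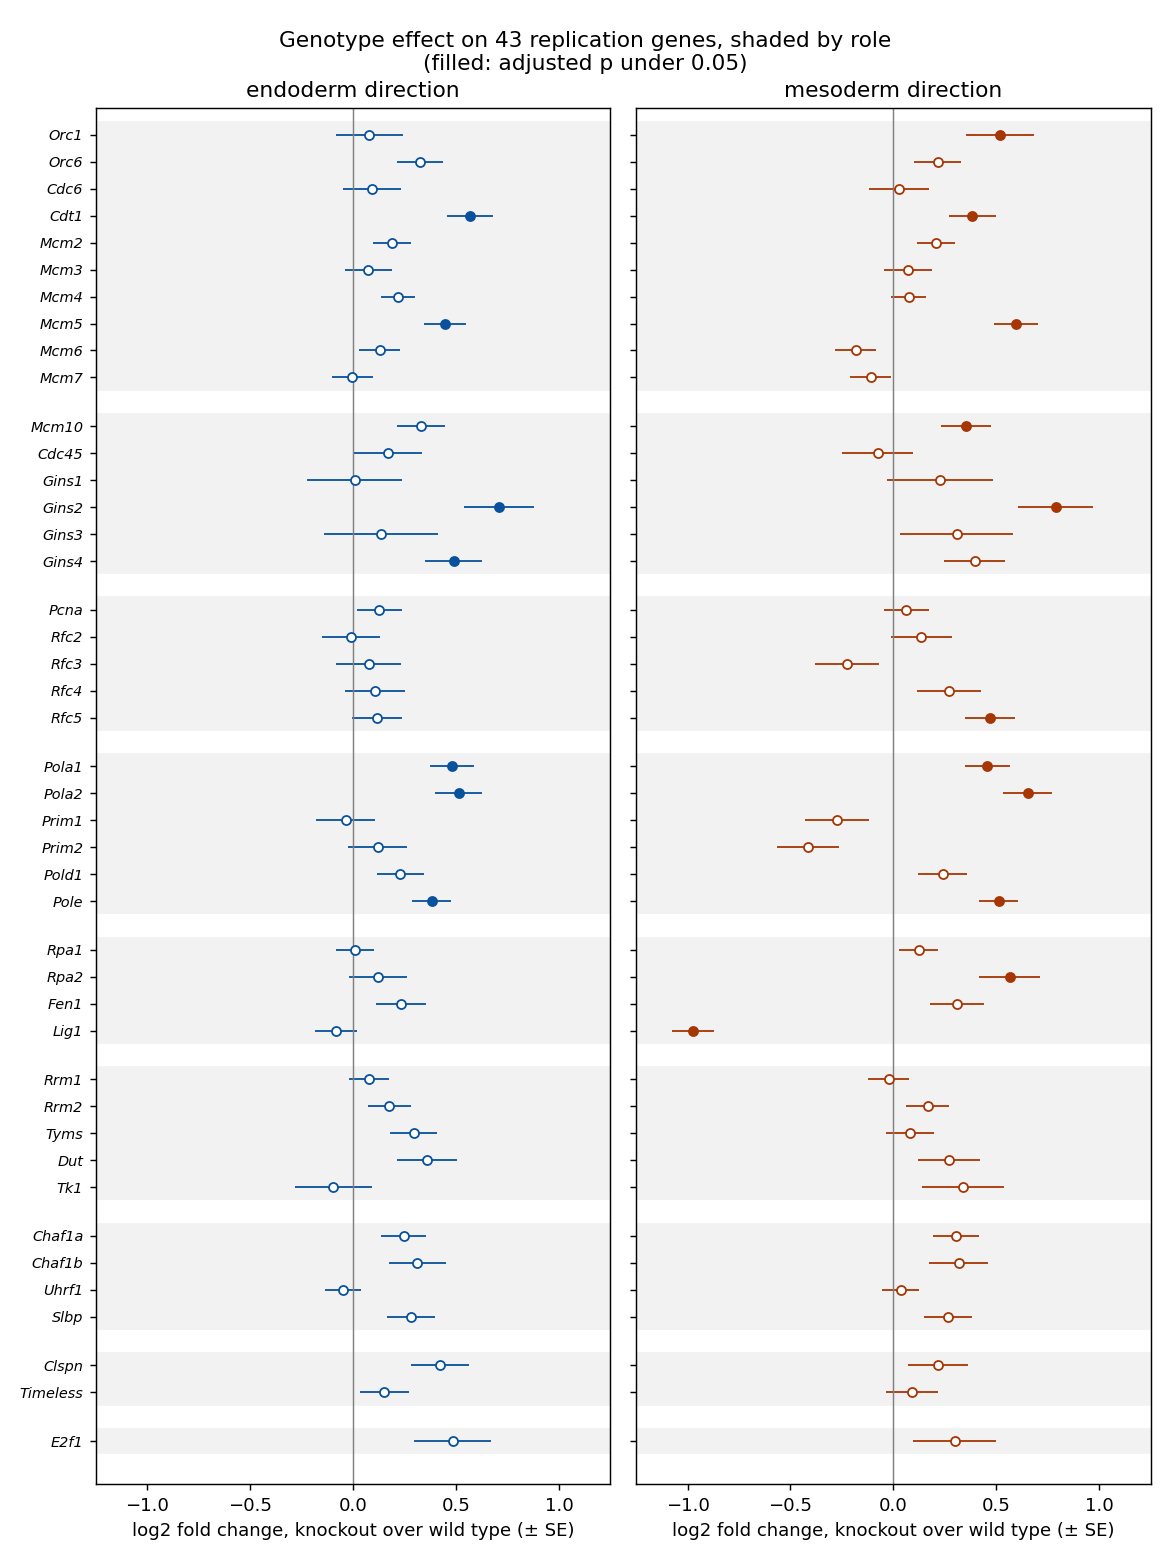
Each point is the log2 fold change of 1 member, knockout over wild type, with its standard error as a bar, in the endoderm direction (left) and the mesoderm direction (right). Genes are shaded in 9 blocks by role, from origin licensing at the top to E2f1 at the bottom, and filled points passed the adjusted threshold. Most points lie right of 0 in both panels, and Lig1 in mesoderm lies alone on the far left at -0.97.

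The counts depended on single libraries. In endoderm 4 members were called once wild type endoderm library 2 was left out, and in mesoderm 7 (5 higher and 2 lower, Mcm6 with Lig1) once wild type mesoderm library 3 was left out. Cdt1, Gins2, Pola1 and Pola2 in endoderm, and Lig1, Mcm5, Pola1, Pola2 and Pole in mesoderm, passed under each of the 18 alternatives run for each comparison.

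Other cell states moved with the same labels. Endoderm markers summed to 285 to 393 CPM in wild type endoderm and 23.9 to 29.1 in knockout endoderm, where 10 of 10 fell. They summed to 67.1 to 80.3 in wild type mesoderm and 21.2 to 31.5 in knockout mesoderm, where 3 of 10 fell, and Cer1 had 0 counts in both mesoderm groups. Mesoderm markers summed to 189.8 to 449 CPM in wild type mesoderm and 7.38 to 14.1 in knockout mesoderm, where 7 of 7 tested fell. They summed to 123 to 153 in wild type endoderm and 4.91 to 6.97 in knockout endoderm, where 6 of 7 fell. In knockout mesoderm Mesp1 and Msgn1 had 0 counts. Pluripotency markers summed to 383 to 439 CPM in wild type endoderm, 453 to 493 in knockout endoderm, 312 to 384 in wild type mesoderm and 469 to 489 in knockout mesoderm. Of these 8, 4 rose and Nanog fell in endoderm, and 3 rose and Nanog fell in mesoderm. Fibroblast and feeder markers summed to 61.7 to 137 CPM, 122 to 361, 133 to 215 and 148 to 340 in the same order. Of 10 tested among 14 listed, 5 rose in endoderm. Lum, Fap and S100a4 were not tested, with 0 counts in wild type endoderm and 5, 3 and 2 summed over the knockout endoderm libraries. In mesoderm Fbln2 rose and Vim fell. Neural markers summed to 228 to 246, 202 to 220, 88.9 to 131 and 135 to 171 CPM, and of 4 tested among 8 listed, Map2 rose in endoderm (log2 fold change 0.78, adjusted p = 0.0407) and Otx2 in mesoderm (1.94, adjusted p = 2.03e-07). The labelled lineages thus showed their markers in wild type and hardly in knockout, and the part of these shifts in cell state in the members' differences was not tested. In bulk RNA, more cells of a cycling type and more RNA per cell cannot be told apart.

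Promoters are shown because the list is defined in part by E2F control. Another reason is that Pola1 and Pola2, 2 subunits of 1 enzyme that rose together, differ in exact matches to the words searched. RefSeq promoter windows on the assembly GRCm38.p6, from 250 bases before to 50 after a transcript start, were found by symbol for 36 of the 43 members. For Pole, Gins1, Gins2, Gins4, Rfc2, Mcm4 and Prim2 no window was matched. A search on both strands for the E2F octamers TTTCCCGC, TTTGGCGC, TTTCGCGC and TTTGCCGC found a match in 14 of the 36 (38.9%), beside 704 of 27025 genes (2.6%) with a window of that length. That background is not limited to the 11635 genes tested here and was not matched for base content. Below, octamers are in capitals and each window is written 5′ to 3′ on the gene's own strand. Cdt1 lies at chr8:122567765-122568064 on the plus strand, Mcm5 at chr8:75109259-75109558 on the plus strand, Pola1 at chrX:93632106-93632405 on the minus strand, Pola2 at chr19:5964157-5964456 on the minus strand, and the Lig1 window that holds a match, 1 of its 3 windows, at chr7:13278576-13278875 on the plus strand.
Cdt1: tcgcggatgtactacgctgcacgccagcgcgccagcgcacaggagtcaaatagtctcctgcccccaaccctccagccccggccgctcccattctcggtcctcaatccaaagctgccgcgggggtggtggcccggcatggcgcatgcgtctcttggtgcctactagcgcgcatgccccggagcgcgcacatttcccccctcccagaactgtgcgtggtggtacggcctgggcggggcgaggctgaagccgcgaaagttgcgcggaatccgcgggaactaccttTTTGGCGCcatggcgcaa
Mcm5: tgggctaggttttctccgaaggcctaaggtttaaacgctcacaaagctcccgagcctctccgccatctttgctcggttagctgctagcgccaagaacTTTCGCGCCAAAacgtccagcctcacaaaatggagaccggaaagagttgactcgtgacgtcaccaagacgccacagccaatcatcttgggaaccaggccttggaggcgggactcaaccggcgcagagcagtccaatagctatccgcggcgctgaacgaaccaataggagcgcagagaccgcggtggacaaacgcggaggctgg
Pola1: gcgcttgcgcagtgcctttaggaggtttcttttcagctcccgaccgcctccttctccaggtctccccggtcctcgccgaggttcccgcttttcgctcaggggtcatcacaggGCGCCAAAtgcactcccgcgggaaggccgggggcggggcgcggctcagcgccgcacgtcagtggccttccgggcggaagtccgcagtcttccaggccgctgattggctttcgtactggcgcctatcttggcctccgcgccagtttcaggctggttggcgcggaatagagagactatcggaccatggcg
Pola2: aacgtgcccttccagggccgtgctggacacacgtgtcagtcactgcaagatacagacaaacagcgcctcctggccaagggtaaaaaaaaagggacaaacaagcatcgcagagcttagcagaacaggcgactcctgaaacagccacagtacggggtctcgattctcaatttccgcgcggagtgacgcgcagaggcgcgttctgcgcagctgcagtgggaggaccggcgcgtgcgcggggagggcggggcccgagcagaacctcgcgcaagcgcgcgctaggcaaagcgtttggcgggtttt
Lig1: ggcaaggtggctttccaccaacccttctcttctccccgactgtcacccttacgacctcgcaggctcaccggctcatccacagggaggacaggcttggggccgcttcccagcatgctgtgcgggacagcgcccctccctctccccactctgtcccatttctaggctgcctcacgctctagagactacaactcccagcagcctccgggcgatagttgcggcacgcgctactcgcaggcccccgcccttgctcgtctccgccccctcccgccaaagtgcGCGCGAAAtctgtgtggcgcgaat

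The match in Cdt1 lies close to the end of its window, near the start of the transcript. In Mcm5 a forward octamer overlaps a reverse one, so that both are written as a single run of capitals. Pola1 and Lig1 each carry 1 match on the reverse strand, and the Pola2 window holds no exact match, which says nothing of the factor. Near its end the Pola2 window reads tttggcgg, which differs from TTTGGCGC in the last letter. Members with a match were Cdc6, Cdt1, Clspn, Gins3, Lig1, Mcm3, Mcm5, Mcm6, Mcm7, Orc1, Pola1, Pold1, Rfc3 and Uhrf1. Of these 14, 4 rose in at least 1 lineage (Mcm5, Orc1, Pola1 and Cdt1), and so did 4 of the 22 without a match (Pola2, Rpa2, Mcm10 and Rfc5), beside 11.2% of all genes. The median log2 fold change was 0.11 in endoderm and 0.14 in mesoderm for members with a match, and 0.18 and 0.27 for those without. The members with and without a match were not tested against each other, and only these exact words were searched. Other words were read in the same windows: the CCAAT box (CCAAT) was in 22 of 36 members (61.1%, beside 41.1% of all genes), the GC box (GGGCGG) in 26 (72.2%, beside 38.2%) and TTTGAA, the core of the element bound by the DREAM complex in late cell cycle genes, in 4 (11.1%, beside 20.2%).

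Among the 10 origin recognition and licensing genes, Cdt1 and Mcm5 rose in both lineages and Orc1 in mesoderm. Cdt1, which brings the MCM ring to origins, was at 35.2, 35.8 and 37.0 CPM in wild type endoderm and at 47.1, 55.7 and 56.4 in knockout endoderm, with no overlap between the genotypes (log2 fold change 0.57, SE 0.11, adjusted p = 0.00127). In mesoderm it was at 47.9, 47.9 and 37.5 CPM in wild type and 59.0, 54.5 and 57.3 in knockout, again without overlap (log2 fold change 0.38, SE 0.11, adjusted p = 0.0192). The knockout groups overlapped between lineages, while wild type mesoderm libraries all stood above wild type endoderm libraries. The mesoderm call for Cdt1 was lost with DESeq2 (adjusted p = 0.0886) and without wild type mesoderm library 3 (0.17), knockout mesoderm library 1 (0.0644) or knockout mesoderm library 3 (0.0528).

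Mcm5, a subunit of the MCM ring and the licensing gene with the highest mean level in CPM, was at 146, 116 and 130.2 CPM in wild type endoderm and 180.4, 178 and 176 in knockout endoderm (log2 fold change 0.45, SE 0.10, adjusted p = 0.0057). In mesoderm its levels were 148, 128 and 114 CPM in wild type and 204, 202 and 184 in knockout (log2 fold change 0.60, SE 0.11, adjusted p = 0.000349). The lowest knockout library stood above the highest wild type library in both lineages. Without wild type endoderm library 2 the endoderm call was lost (adjusted p = 0.0627). The other 5 ring genes did not pass in either lineage: their log2 fold changes in endoderm and mesoderm were 0.19 and 0.21 for Mcm2, 0.07 and 0.07 for Mcm3, 0.22 and 0.07 for Mcm4, 0.13 and -0.18 for Mcm6, and -0.00 and -0.11 for Mcm7. The 6 products assemble in equal numbers into 1 ring. The ratio within each library is of transcripts, not corrected for exon length, and says nothing of protein. Mcm5 over the mean CPM of the other 5 was 1.10 ± 0.12 in wild type endoderm and 1.38 ± 0.05 in knockout endoderm (SD, n = 3 each), and 0.99 ± 0.04 in wild type mesoderm and 1.49 ± 0.15 in knockout mesoderm. Knockout and wild type libraries did not overlap in either lineage, and the exact two-sided permutation p was 0.1 in both, the smallest that 3 against 3 can give. This ratio was chosen after the values were seen and is 1 of 18 such tests, with an adjusted p of 0.2 (Benjamini-Hochberg).

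Orc1, the largest subunit of the origin recognition complex, rose in mesoderm, from 22.4, 23.2 and 18.2 CPM in wild type to 33.0, 29.2 and 27.2 in knockout, without overlap (log2 fold change 0.52, SE 0.17, adjusted p = 0.0306). In endoderm it was at 18.3, 24.0 and 17.2 CPM in wild type and 16.3, 23.7 and 23.1 in knockout, which overlap (log2 fold change 0.08, SE 0.16, adjusted p = 0.828). The difference between the lineages did not pass its own test (interaction -0.44, SE 0.23, adjusted p = 0.542). The mesoderm call for Orc1 was lost with DESeq2 (adjusted p = 0.118) and without wild type mesoderm library 3 (0.183), knockout mesoderm library 1 (0.124) or knockout mesoderm library 2 (0.0634). Orc6, the smallest subunit, had estimates of 0.33 in endoderm (adjusted p = 0.0575, a call at adjusted p = 0.0491 without wild type mesoderm library 3) and 0.22 in mesoderm (adjusted p = 0.207). Cdc6, CDT1's partner in loading, was at 0.09 and 0.03, with 95% intervals of -0.20 to 0.38 and -0.28 to 0.33.

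**Figure D2:**
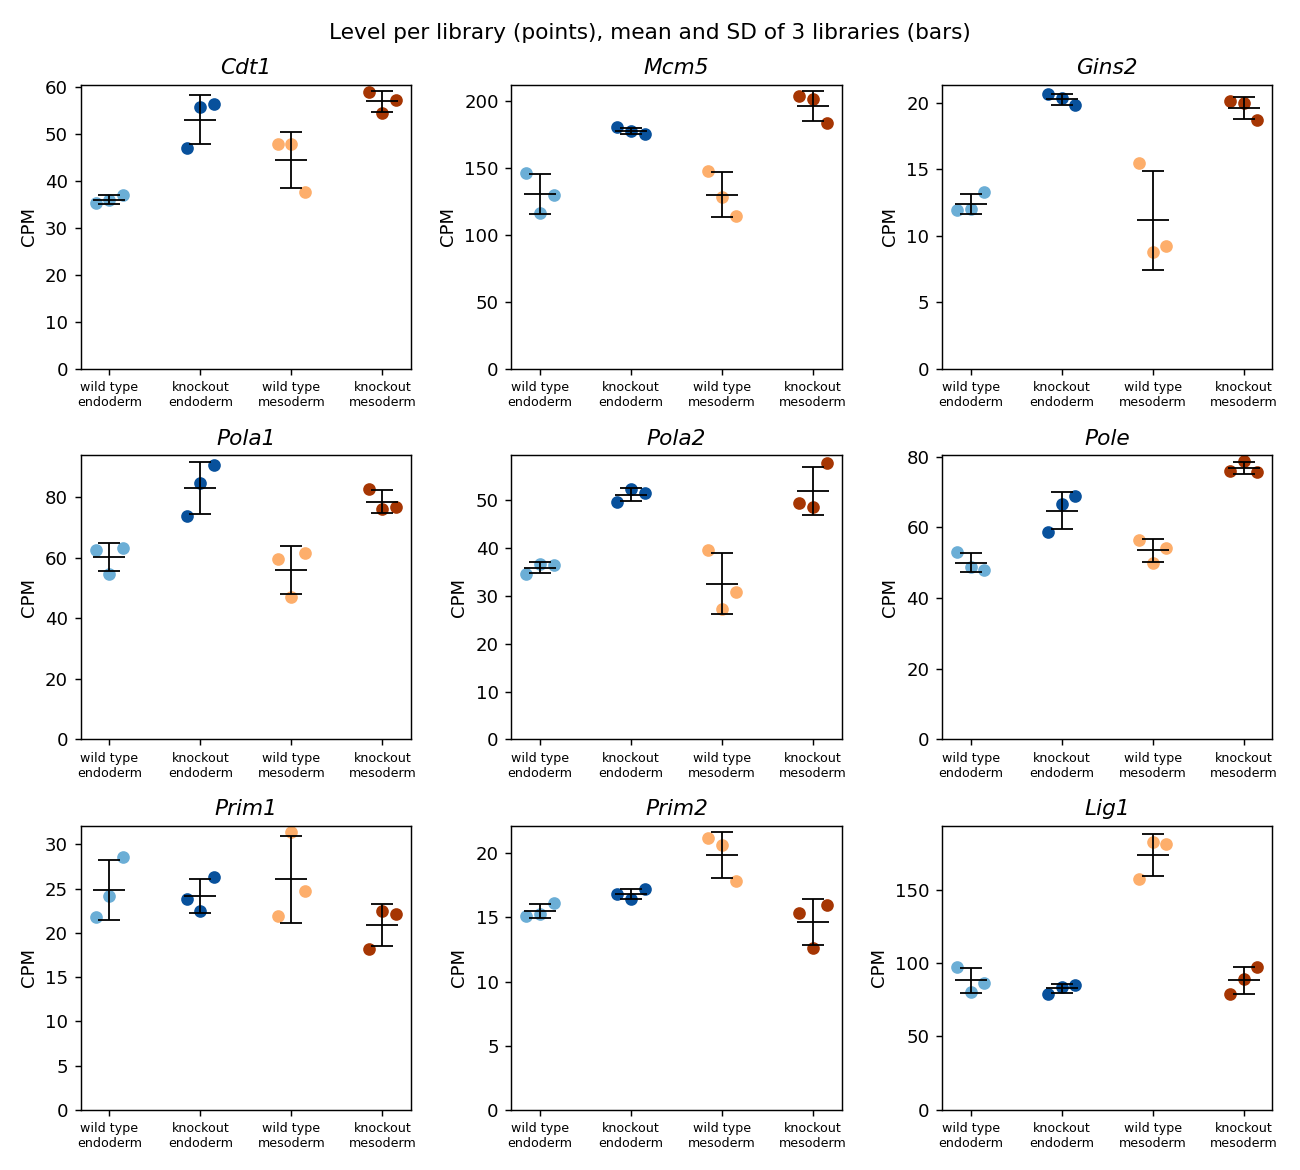
Level in CPM (axis from 0) of 9 members in the 12 libraries, 1 point per library, with the mean and SD of 3 libraries as bars, in the order wild type endoderm, knockout endoderm, wild type mesoderm, knockout mesoderm. In the 6 upper panels the knockout points lie above the wild type points of the same lineage, Prim1 overlaps in both lineages, Prim2 lies above wild type in endoderm and below it in mesoderm, and Lig1 is high in wild type mesoderm alone of the 4 groups.

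Helicase activation involves 6 members, of which Gins2 rose in both lineages, Gins4 in endoderm and Mcm10 in mesoderm. Gins2, a GINS subunit, was at 11.9, 12.003 and 13.3 CPM in wild type endoderm and 20.6, 20.3 and 19.8 in knockout endoderm (log2 fold change 0.71, SE 0.17, adjusted p = 0.00696). In mesoderm it was at 15.5, 8.76 and 9.26 CPM in wild type and 20.1, 19.998 and 18.7 in knockout (log2 fold change 0.79, SE 0.18, adjusted p = 0.00357). Knockout libraries lay above wild type ones throughout. These were the largest positive member estimates in each lineage. However, 70.7% of its exon bases lie across Gse1 on the opposite strand (GENCODE vM21), and Gse1 rose as well, by 0.32 on the log2 scale in endoderm (adjusted p = 0.0389) and 1.01 in mesoderm (adjusted p = 8.38e-07). Reads of these genes may be shared, since no source used here says whether strand entered the counting. Gse1 differed between the lineages in its genotype effect (interaction -0.69, adjusted p = 0.0141). Gins2, with 17 counts in its lowest library, did not pass that test (-0.08, adjusted p = 0.961). The sharing of reads was not tested. Without wild type mesoderm library 3 the mesoderm call for Gins2 was lost (adjusted p = 0.0518).

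Gins4, another GINS subunit, was at 19.5, 17.3 and 15.5 CPM in wild type endoderm and 22.7, 26.8 and 23.5 in knockout endoderm, without overlap (log2 fold change 0.49, SE 0.14, adjusted p = 0.0224). In mesoderm its libraries were also apart, at 17.0, 16.0 and 18.3 CPM in wild type and 24.6, 24.0 and 19.995 in knockout, but the test was not passed (log2 fold change 0.40, SE 0.15, adjusted p = 0.0656). The endoderm call was lost with DESeq2 (adjusted p = 0.149) and without wild type endoderm library 2 (0.0879), wild type endoderm library 3 (0.0979) or knockout endoderm library 2 (0.118). The mesoderm value passed without knockout mesoderm library 3 (0.0432). Gins1 and Gins3, the remaining GINS subunits, had the least counts of this role and wide intervals: -0.47 to 0.49 in endoderm and -0.31 to 0.76 in mesoderm for Gins1, -0.44 to 0.71 and -0.26 to 0.88 for Gins3.

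Mcm10, which helps the activated helicase leave the origin and had the highest CPM of this role, was at 34.9, 38.8 and 39.8 CPM in wild type endoderm and 49.4, 48.4 and 45.5 in knockout endoderm. In mesoderm it was at 39.7, 52.0 and 35.9 CPM in wild type and 50.3, 56.3 and 50.7 in knockout. Its libraries were apart in endoderm and overlapped in mesoderm, where wild type library 2 was the second highest of the 6. The estimates were nearly the same, and the threshold fell between them: log2 fold change 0.33, SE 0.12, adjusted p = 0.0657 in endoderm, log2 fold change 0.35, SE 0.12, adjusted p = 0.0429 in mesoderm. That mesoderm call was lost in 11 of 18 alternatives, with adjusted p up to 0.258 (without wild type mesoderm library 3), and the endoderm value passed in 4 of 18, with the lowest at 0.0253. Cdc45, the helicase's remaining part beside MCM and GINS, was at 0.17 in endoderm and -0.08 in mesoderm and did not pass.

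At the polymerases, Pola1 and Pola2 rose in both lineages, while Prim1 and Prim2 did not pass. The pairs were compared only by a ratio chosen after the values were seen, given below. Pola1, the catalytic subunit of polymerase alpha, was at 62.6, 54.7 and 63.0 CPM in wild type endoderm and 73.8, 84.5 and 90.6 in knockout endoderm (log2 fold change 0.48, SE 0.11, adjusted p = 0.00373), and at 59.4, 46.9 and 61.4 in wild type mesoderm and 82.8, 76.0 and 76.5 in knockout mesoderm (log2 fold change 0.46, SE 0.11, adjusted p = 0.00511). Pola2, its accessory subunit, was at 34.6, 36.7 and 36.4 CPM in wild type endoderm and 49.7, 52.5 and 51.6 in knockout endoderm (log2 fold change 0.51, SE 0.11, adjusted p = 0.00431), and at 39.7, 27.3 and 30.8 in wild type mesoderm and 49.5, 48.6 and 57.9 in knockout mesoderm (log2 fold change 0.65, SE 0.12, adjusted p = 0.000553). For both genes each knockout library was above each wild type library of its lineage. Their printed promoter windows differ in the exact octamers searched, of which Pola1 has a match and Pola2 has only a near match. Whether the octamer bears on their fold changes was not tested.

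The primase subunits, which work in the same complex, did not pass. Prim1, the catalytic primase subunit, was at 21.8, 24.2 and 28.5 CPM in wild type endoderm, 23.8, 22.5 and 26.3 in knockout endoderm, 21.9, 31.4 and 24.7 in wild type mesoderm and 18.2, 22.5 and 22.1 in knockout mesoderm, overlapping in both lineages. Its log2 fold changes were -0.04 (95% interval -0.33 to 0.26) and -0.27 (-0.59 to 0.05). Prim2, the large primase subunit, was at 15.1, 15.3 and 16.1 CPM, 16.9, 16.4 and 17.2, 21.2, 20.6 and 17.8 and 15.4, 12.6 and 16.0 in the same order. In mesoderm the knockout libraries lay below the wild type ones without reaching the threshold (log2 fold change -0.42, SE 0.15, adjusted p = 0.057), and in endoderm each knockout library exceeded each wild type one, with an estimate of 0.12 that did not pass either (adjusted p = 0.677).

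Summed per library, Pola1 and Pola2 over Prim1 and Prim2 stood at 2.39 ± 0.21 in wild type endoderm and 3.27 ± 0.24 in knockout endoderm (ratio of CPM, SD, n = 3 each), and at 1.96 ± 0.47 in wild type mesoderm and 3.67 ± 0.23 in knockout mesoderm. The genotypes did not overlap in either lineage (exact two-sided permutation p = 0.1 in each, the smallest possible). All ratios of partner genes and all sums were chosen after the values were seen. Over the 18 exact tests of such quantities the smallest Benjamini-Hochberg adjusted p was 0.2. Pole, the catalytic subunit of the leading strand polymerase epsilon, rose in both lineages. It was at 53.0, 48.9 and 48.0 CPM in wild type endoderm and 58.7, 66.5 and 68.8 in knockout endoderm (log2 fold change 0.38, SE 0.09, adjusted p = 0.0089), and at 56.4, 49.97 and 54.0 in wild type mesoderm and 76.0, 78.8 and 75.7 in knockout mesoderm (log2 fold change 0.51, SE 0.10, adjusted p = 0.000567), with no overlap in either. Its endoderm call was lost without wild type endoderm library 2 (adjusted p = 0.0559) or knockout endoderm library 3 (0.0525). Pold1, the catalytic subunit of polymerase delta, which copies the lagging strand, did not pass, at 0.23 in endoderm (adjusted p = 0.217) and 0.24 in mesoderm (adjusted p = 0.176).

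**Figure D3:**
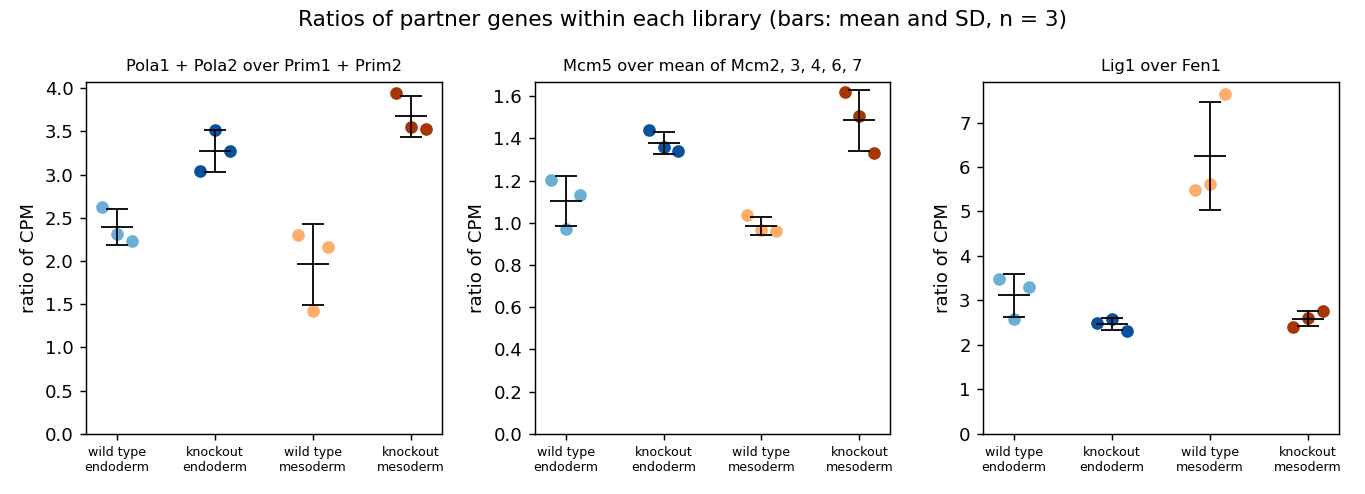
Ratios of CPM within each library (axes from 0): polymerase alpha over primase genes, Mcm5 over the mean of the other 5 ring genes, and Lig1 over Fen1, with points for the libraries and bars for the mean and SD of 3. Knockout libraries lie above wild type ones in both lineages in the left and middle panels, and wild type mesoderm stands apart on the right at 6.25 ± 1.21.

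In mesoderm Lig1 fell while the other 10 called members rose. It encodes DNA ligase I, which seals the pieces of the lagging strand, and was at 97.5, 80.2 and 86.4 CPM in wild type endoderm, 79.0, 83.8 and 85.1 in knockout endoderm, 157, 182 and 181 in wild type mesoderm and 78.8, 88.9 and 97.0 in knockout mesoderm. Wild type mesoderm stood above every other library, and the other 3 groups overlapped one another. Lig1 fell by 0.97 on the log2 scale in mesoderm (SE 0.10, adjusted p = 6.3e-07) and was at -0.08 in endoderm (SE 0.10, adjusted p = 0.687). The 2 genotype effects differed (interaction 0.89, SE 0.14, adjusted p = 0.00115). In wild type cells Lig1 was lower in endoderm than in mesoderm, with a log2 difference of -0.98 (SE 0.10, adjusted p = 4.85e-07), and in knockout cells that difference was -0.09 (95% interval -0.31 to 0.12, adjusted p = 0.797). All of the Lig1 calls held under every alternative run. These comparisons share the wild type mesoderm libraries.

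The neighbourhood of Lig1 on chromosome 7 was read for the same step. Pla2g4c, a phospholipase gene that starts just beyond the end of Lig1, had mean levels of 1.12, 1.74, 4.91 and 2.36 CPM in wild type endoderm, knockout endoderm, wild type mesoderm and knockout mesoderm. It was lower in wild type endoderm than in wild type mesoderm (-2.03, adjusted p = 0.00397), and its genotype effect in mesoderm did not pass (-1.02, adjusted p = 0.0876). Zswim9, which overlaps 6.17% of the Lig1 exon bases on the opposite strand, had too few counts to be tested. Fen1, the flap endonuclease that trims the pieces Lig1 joins, did not pass: log2 fold change 0.23, SE 0.12, adjusted p = 0.248 in endoderm and log2 fold change 0.31, SE 0.13, adjusted p = 0.104 in mesoderm. Fen1 shares 78.8% of its exon bases with the antisense gene Gm10143. Lig1 over Fen1 was 3.12 ± 0.48 in wild type endoderm, 2.46 ± 0.14 in knockout endoderm, 6.25 ± 1.21 in wild type mesoderm and 2.59 ± 0.17 in knockout mesoderm (SD, n = 3 each). Knockout and wild type overlapped in endoderm (exact permutation p = 0.2) and did not in mesoderm (exact permutation p = 0.1, the smallest possible).

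Of the single-strand binding genes, Rpa2, the middle subunit of replication protein A, rose in mesoderm, from 20.7, 16.5 and 16.3 CPM in wild type to 26.6, 27.1 and 25.9 in knockout, without overlap (log2 fold change 0.56, SE 0.15, adjusted p = 0.00848). In endoderm it was at 21.8, 20.1 and 17.0 CPM in wild type and 23.5, 21.5 and 19.4 in knockout, which overlap (log2 fold change 0.12, SE 0.14, adjusted p = 0.662). The interaction did not pass (-0.44, adjusted p = 0.44). The mesoderm call was lost with DESeq2 (adjusted p = 0.0531) and without wild type mesoderm library 3 (0.07). Rpa1, the large subunit, was at 0.01 and 0.12, with 95% intervals of -0.18 to 0.20 and -0.07 to 0.32.

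Of the 5 genes of the clamp and its loader, Rfc5 rose in mesoderm and the other 4 did not pass in either lineage. Pcna, the sliding clamp and the most abundant of its role, was at 131, 124 and 119 CPM in wild type endoderm, 134, 126 and 149 in knockout endoderm, 149, 161 and 116 in wild type mesoderm and 137, 149 and 153 in knockout mesoderm. The genotypes overlapped in each lineage, at log2 fold change 0.13, SE 0.11, adjusted p = 0.517 in endoderm and log2 fold change 0.06, SE 0.11, adjusted p = 0.748 in mesoderm. Rfc5, a small clamp loader subunit, rose in mesoderm, from 29.7, 29.9 and 34.7 CPM in wild type to 41.1, 41.2 and 49.6 in knockout (log2 fold change 0.47, SE 0.12, adjusted p = 0.00914), and was at 31.7, 29.2 and 25.7 and 33.4, 32.0 and 28.7 in endoderm (log2 fold change 0.12, SE 0.12, adjusted p = 0.628). Knockout mesoderm was above all other libraries, and the interaction did not pass (-0.35, adjusted p = 0.501). Without knockout mesoderm library 3, the highest, the call was lost (adjusted p = 0.0657). Its exons overlap Wsb2 on the opposite strand over 15.4% of their bases, and Wsb2 was not called, at -0.23 in mesoderm. The subunits Rfc2, Rfc3 and Rfc4 did not pass, with estimates of -0.01, 0.07 and 0.11 in endoderm and 0.14, -0.22 and 0.27 in mesoderm.

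None of the 5 nucleotide supply genes was called between genotypes by edgeR or DESeq2, while 2 were higher at an unadjusted p under 0.05 in edgeR in endoderm (Dut and Tyms) and 0 in mesoderm. Rrm1, the large subunit of ribonucleotide reductase, which makes deoxynucleotides, was at 112, 109.6 and 102 CPM in wild type endoderm, 119, 112 and 111 in knockout endoderm, 111, 107 and 106 in wild type mesoderm and 92.5, 122 and 105 in knockout mesoderm, overlapping throughout (log2 fold change 0.08, SE 0.10, adjusted p = 0.686 in endoderm, log2 fold change -0.02, SE 0.10, adjusted p = 0.908 in mesoderm). Rrm2, its small subunit, was at 0.18 and 0.17. Tyms, thymidylate synthase, was at 0.29 (adjusted p = 0.1) and 0.08. Dut, which removes dUTP, was at 0.36 (adjusted p = 0.122) and 0.27, and it passed in endoderm with no filter on low counts (adjusted p = 0.0237) and when the endoderm libraries were fitted alone (adjusted p = 0.0299). Tk1, the salvage thymidine kinase, was at -0.10 and 0.34, with wide 95% intervals of -0.49 to 0.30 and -0.08 to 0.75.

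The 4 chromatin assembly and histone supply genes likewise did not pass in either tool, with 3 higher at an unadjusted p under 0.05 in edgeR in each lineage. Uhrf1, which carries DNA methylation through replication and was the most abundant of them, was at 104, 104 and 111 CPM in wild type endoderm, 99.9, 101 and 106 in knockout endoderm, 118, 116 and 111 in wild type mesoderm and 106, 120.3 and 127 in knockout mesoderm. Its genotypes overlapped (log2 fold change -0.05, SE 0.09, adjusted p = 0.795 in endoderm, log2 fold change 0.04, SE 0.09, adjusted p = 0.836 in mesoderm). Chaf1a and Chaf1b, subunits of the histone chaperone CAF-1, were at 0.24 and 0.31 in endoderm and at 0.30 and 0.32 in mesoderm, with adjusted p from 0.0639 to 0.155. Chaf1a passed in mesoderm without wild type mesoderm library 1 (adjusted p = 0.0118). Slbp, which binds the stem loop of histone mRNA, was at 0.28 and 0.27, and it passed in mesoderm without wild type mesoderm library 2 (adjusted p = 0.0394).

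Fork checkpoint genes gave 2 uncalled members. Timeless, a part of the fork protection complex and the one with the higher CPM, was at 32.9, 30.7 and 36.4 CPM in wild type endoderm, 36.0, 36.1 and 38.2 in knockout endoderm, 38.2, 39.2 and 32.3 in wild type mesoderm and 33.3, 37.2 and 44.3 in knockout mesoderm, with overlap in both lineages (log2 fold change 0.15, SE 0.12, adjusted p = 0.483 in endoderm, log2 fold change 0.09, SE 0.12, adjusted p = 0.674 in mesoderm). Clspn, the claspin adaptor of the checkpoint kinase CHK1, was at 27.3, 29.5 and 31.4 CPM in wild type endoderm and 35.4, 42.7 and 39.4 in knockout endoderm, apart from each other and just short of the threshold (log2 fold change 0.42, SE 0.14, adjusted p = 0.0523). It passed under several alternatives, with the lowest value when the endoderm libraries were fitted alone (adjusted p = 0.0119). In mesoderm it was at 0.22 (adjusted p = 0.338).

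E2f1, the activating E2F factor on the list, was at 11.6, 10.8 and 8.76 CPM in wild type endoderm, 14.8, 15.6 and 13.3 in knockout endoderm, 13.0, 7.73 and 9.26 in wild type mesoderm and 12.3, 14.8 and 10.9 in knockout mesoderm. Its libraries were apart in endoderm and overlapped in mesoderm, and neither difference passed (log2 fold change 0.48, SE 0.19, adjusted p = 0.0965 in endoderm, log2 fold change 0.30, SE 0.20, adjusted p = 0.34 in mesoderm). The other E2F factors, their DP partners and the pocket proteins were read beside it. Of 13 tested genes of this family, E2f1 included, 3 rose in endoderm: E2f4 (0.45, adjusted p = 0.00686), Tfdp1 (0.34, adjusted p = 0.0215) and E2f7 (0.47, adjusted p = 0.0265). In mesoderm 4 rose: Tfdp1 (0.41, adjusted p = 0.00546), E2f8 (0.55, adjusted p = 0.00977), E2f7 (0.52, adjusted p = 0.0154) and E2f4 (0.35, adjusted p = 0.0275). The risen genes were 23.1% of the family in endoderm and 30.8% in mesoderm, beside 5.78% and 8.93% of all genes. E2f4 is the E2F most bound to pocket proteins, Tfdp1 encodes the common partner DP1, and E2f7 and E2f8 are repressors that are themselves E2F targets. Rbl1, the pocket protein p107, fell in mesoderm at the edge of the threshold (-0.53, adjusted p = 0.0499) and was at -0.37 in endoderm (adjusted p = 0.186). The mesoderm call of Rbl1 was lost in at least 14 of 18 alternatives, DESeq2 and the fit of the mesoderm libraries alone among them.

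The rest of the family did not pass in the main fit. In endoderm and mesoderm the log2 fold changes were -0.10 and 0.18 for E2f2, 0.06 and -0.06 for E2f3, -0.55 and -0.11 for E2f5, and -0.13 and -0.35 for E2f6. They were -0.09 and -0.18 for Tfdp2, 0.13 and 0.09 for Rb1 and 0.03 and -0.12 for Rbl2, and E2f8 was at 0.19 in endoderm. The activating E2Fs on the list and in the family, E2f1, E2f2 and E2f3, gave no call in either lineage, with E2f1 alone at an unadjusted p under 0.05, in endoderm. With DESeq2 the family gave 2 calls in each lineage, and without wild type endoderm library 2 it gave 0 in endoderm. It gave 1 there without knockout endoderm library 2 or 3, and 3 in mesoderm without wild type mesoderm library 2 or 3 or knockout mesoderm library 1 or 2. In endoderm 4 of the family were higher and 2 lower at an unadjusted p under 0.05 in edgeR. With no filter on low counts, a replicate block or the endoderm libraries fitted alone, 3 were called higher and 1 lower. The same counts came without knockout endoderm library 1, wild type mesoderm library 1 or 3, or knockout mesoderm library 1 or 2. Without wild type endoderm library 3 they were 2 and 1. In mesoderm they were 3 and 2 without knockout mesoderm library 3.

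Comparing the lineages within a genotype, few members differed. In wild type cells, Lig1 and Rfc3 were lower in endoderm than in mesoderm and none was higher, beside backgrounds of 5.43% called lower and 4.41% called higher (9.84% in either direction). At an unadjusted p under 0.05, 6 members were lower and 0 higher in edgeR and 4 lower and 0 higher in DESeq2. Rfc3, a clamp loader subunit, was at 18.04, 18.7 and 21.8 CPM in wild type endoderm and 30.4, 35.0 and 23.1 in wild type mesoderm, without overlap (log2 difference -0.55, SE 0.16, adjusted p = 0.0261). In knockout it was at 20.6, 21.7 and 19.0 in endoderm and 22.9, 21.8 and 28.0 in mesoderm, which did not overlap either (log2 difference -0.25, SE 0.16, adjusted p = 0.563). The wild type call was lost with DESeq2 (adjusted p = 0.0891) and without wild type endoderm library 1 (0.0897) or 2 (0.123) or wild type mesoderm library 1 (0.0836) or 2 (0.0947). Without wild type mesoderm library 3, Cdt1 (adjusted p = 0.0366) and Mcm6 (adjusted p = 0.00763) were called lower too, which made 4.

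In knockout cells Rfc5 alone was called, lower in endoderm than in mesoderm, beside a background of 0.902% called lower and 1.86% in either direction (log2 difference -0.49, SE 0.12, adjusted p = 0.0317). That call was lost with DESeq2 (adjusted p = 0.156), which called 0 members here with 3 lower and 0 higher at an unadjusted p under 0.05. It was lost as well without knockout endoderm library 2 (0.113) or 3 (0.15) or knockout mesoderm library 2 (0.0641) or 3 (0.249). The median member difference between lineages, endoderm minus mesoderm, was -0.08 in wild type and -0.06 in knockout. All 3 endoderm libraries lay below all 3 mesoderm libraries for 8 members in wild type (12.4% of all genes did) and for 9 in knockout (8.62%), and above for 0 (12.2%) and 2 (9.59%).

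Summed over the 43 members, the level was 2116 ± 41.7 CPM in wild type endoderm, 2416 ± 67.5 in knockout endoderm, 2362 ± 157 in wild type mesoderm and 2554 ± 108 in knockout mesoderm (SD, n = 3 each). Knockout exceeded wild type in all libraries in endoderm (exact two-sided permutation p = 0.1, the smallest possible), and the genotypes overlapped in mesoderm (exact permutation p = 0.2). Set against exon length, Pcna was the most abundant member, at 90.5 ± 9.57 CPM per kilobase over the 12 libraries (SD). It was followed by Mcm7 (46.0 ± 3.95), Mcm5 (46.0 ± 9.31), Mcm2 (40.5 ± 3.66), Mcm3 (39.7 ± 4.83) and Mcm4 (35.1 ± 2.27), where neighbours in this order overlap within their SD. Gins3 (3.08 ± 0.95), E2f1 (3.78 ± 0.80) and Gins2 (4.07 ± 1.18) were lowest. Among the ring genes Mcm6 was least abundant per length, at 27.6 ± 2.83, and Lig1 had the widest spread of all members, at 30.7 ± 11.5.

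**Figure D4:**
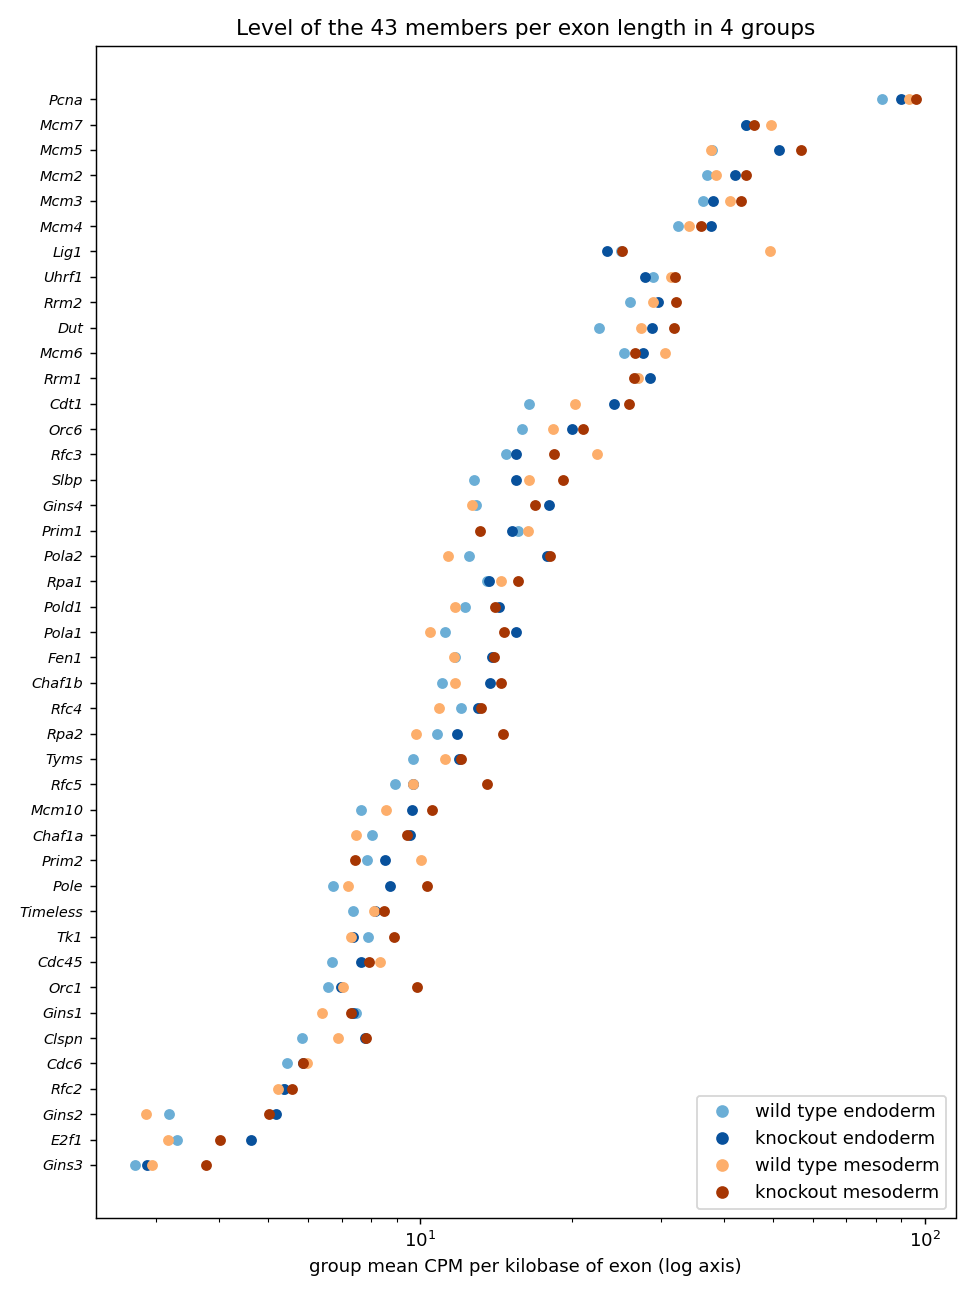
Group mean level of each member in CPM per kilobase of exon on a log axis, 4 points per gene for the 4 groups, sorted by the mean over the 12 libraries. Group means run from 2.73 for Gins3 in wild type endoderm to 96.4 for Pcna in knockout mesoderm, far more than any member differs between groups. The wild type mesoderm point of Lig1 stands apart from its other 3.

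Genes of the same pathway that are not members were read from lists by function. Of 34 other replication genes tested, 3 rose in endoderm: Recql4, a helicase needed for replication start (1.06, adjusted p = 0.000163), Tipin, the partner of Timeless (0.36, adjusted p = 0.0261) and Ticrr, which loads CDC45 (0.41, adjusted p = 0.0368). In mesoderm 7 rose, led by Recql4 (1.17, adjusted p = 5.2e-05), Orc2 (0.53, adjusted p = 0.00163), Dna2 (0.57, adjusted p = 0.00779) and Mtbp (0.57, adjusted p = 0.0142). The list's median was 0.15 in endoderm and 0.16 in mesoderm. Its risen genes were 8.82% of those tested in endoderm and 20.6% in mesoderm, beside 5.78% and 8.93% of all genes. Of 28 other E2F target and nucleotide genes, 4 rose in endoderm, namely the histone chaperone Asf1b (0.83, adjusted p = 0.0117), E2f7, Mybl2 (0.47, adjusted p = 0.035) and Hells (0.32, adjusted p = 0.0473). In mesoderm 12 rose, led by Hells (0.52, adjusted p = 0.00123), Mybl2 (0.67, adjusted p = 0.00147), the phosphatase Cdc25a (0.46, adjusted p = 0.00445) and E2f8, and the medians were 0.19 and 0.28. The risen genes were 14.3% of this list in endoderm and 42.9% in mesoderm, beside 5.78% and 8.93% of all genes. E2f7 and E2f8 are counted here and in the E2F family. In the interaction, 0 genes of both lists were called by edgeR (1.4% of all genes were), and 2 and 0 had an unadjusted p under 0.05.

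Genes of the next phase were read in the same way. Of 25 G2-M genes, which serve mitotic entry and spindle assembly, Bub1b rose in endoderm (0.33, adjusted p = 0.0473). In mesoderm Plk1 (0.33, adjusted p = 0.0278) and Ttk (0.39, adjusted p = 0.0326) rose and Cenpa (-0.40, adjusted p = 0.0397) and Ccnb2 (-0.40, adjusted p = 0.0478) fell. Their medians were -0.02 and 0.02, and their summed level was 1973 ± 77.0 CPM in wild type endoderm, 1952 ± 143 in knockout endoderm, 2054 ± 100.3 in wild type mesoderm and 1998 ± 103 in knockout mesoderm (SD, n = 3 each), overlapping throughout. Calls in either direction took 4% of the G2-M genes in endoderm and 16% in mesoderm, beside 12.7% and 19.1% of all genes. The difference between lists was not tested. With DESeq2 the endoderm calls were 1, 0 and 0 for the other replication, other E2F target and G2-M genes, and the mesoderm calls 4, 7 and 0. With only the libraries compared fitted, the endoderm calls were 5, 7 and 1 in the same order. The mesoderm calls were then 6, 9 and 0. Leaving out single libraries moved the counts as well. In endoderm the other replication genes gave 1 call without wild type endoderm library 1, 2 or 3 or knockout endoderm library 2. The other E2F target genes gave 0 there without wild type endoderm library 2, 1 without knockout endoderm library 3 and 2 without knockout endoderm library 1 or 2. In mesoderm the other replication genes gave 4 without wild type mesoderm library 3 or knockout mesoderm library 3. The other E2F target genes gave 5 without wild type mesoderm library 2, 6 without wild type mesoderm library 3 and 7 without knockout mesoderm library 2. The G2-M call in endoderm was lost without any 1 of the 6 endoderm libraries or knockout mesoderm library 2, and in mesoderm 0 to 2 G2-M genes were called without any 1 of wild type libraries 2 and 3 and knockout libraries 1, 2 and 3.

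**Figure D5:**
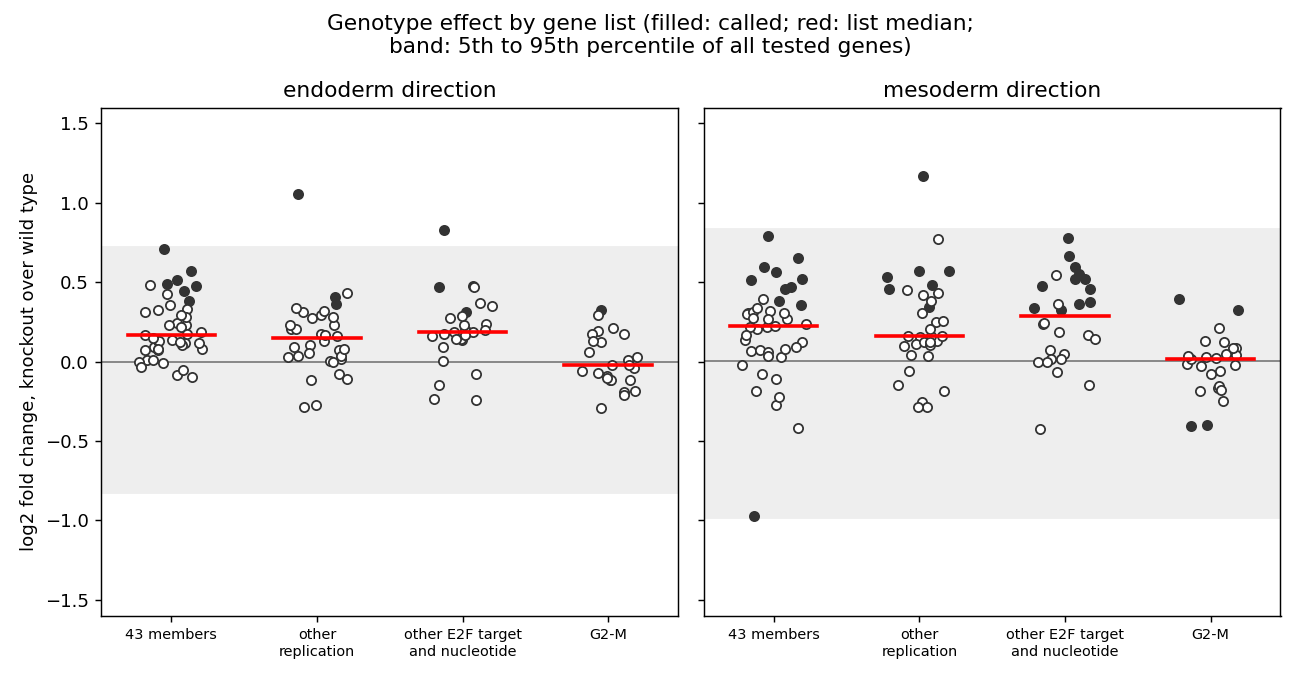
Log2 fold change, knockout over wild type, of the 43 members, the other replication genes, the other E2F target and nucleotide genes and the G2-M genes, in endoderm (left) and mesoderm (right), 1 point per gene, filled where called, with the list median in red. The grey line is the median of all tested genes and the band spans their 5th to 95th percentile. Member medians (0.17 and 0.23) lie above the line, G2-M medians (-0.02 and 0.02) lie close to it, and nearly all points lie within the band.

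Shared exons were counted for all members, because the use of strand in counting is not given in the sources used here. Over 10% of exon bases were shared with another gene for 9 members: Gins2, Fen1, Chaf1a (33.6%, Ubxn6), Rfc2 (19.1%, Lat2), Rfc5, Slbp (14.4%, Gm10459), Rfc4 (13.4%, Eif4a2), Orc1 (11.9%, Gm12743) and Mcm7 (10.8%, Ap4m1). Of the other 34 members, 6 rose in endoderm, and 7 rose and Lig1 fell in mesoderm, with medians of 0.17 and 0.21. The ratio of Cdt1 to Gmnn, the gene of its inhibitor geminin, which is counted among the non-members, was 2.80 ± 0.60 in wild type endoderm and 3.73 ± 0.26 in knockout endoderm, overlapping by 1 library (exact permutation p = 0.2). It was 2.57 ± 0.40 in wild type mesoderm and 3.79 ± 0.23 in knockout mesoderm, without overlap (exact permutation p = 0.1, the smallest possible).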

How the data were processed

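Per the labels' protocols, total RNA of 12 libraries was depleted of ribosomal RNA and prepared with a directional kit for Illumina sequencing. The authors deposited raw counts of reads for each gene in 12 columns. The submitters' processing notes name STAR, DESeq2 and the build mm10. The sources used here do not name the counter, its annotation or its use of strand. For 26 genes, no member among them, 1 library's cell held a date and no count, and these genes were left out, as was Rn45s (79.7% to 82.4% of each library). Of the remaining counts, Mir6236 and Lars2 took 49.7% to 69.5% and were kept.

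The counts were fitted with edgeR 4.0.16 (R 4.3.3): TMM library sizes, filterByExpr with a minimum count of 10, 4 group means over all 12 libraries, the quasi-likelihood test and Benjamini-Hochberg adjustment over 11635 genes at 0.05. SE is the log2 fold change over the square root of its F statistic, and intervals are 95%. The fit was tested on simulated data. Groups and replicate numbers come from the sample titles. Per-library values are given for members called in a genotype comparison, for up to 6 called in each lineage comparison and for the member with the highest CPM of each role. Clspn, Prim1 and Prim2 were added after their values were seen. Of other lists, up to 4 called genes were named, and all of the E2F family. The members and lists were chosen with earlier results of these data known. Alternatives were DESeq2 1.42.0, RLE size factors, Mir6236 and Lars2 left out, no filter, a replicate block, only the libraries compared, and each library left out. Same-numbered libraries deviated together in part: 5 of 18 pairs had a correlation over 0.1, and 9 of 12 libraries correlated best with their own number. The number was not taken as a pairing in the main fit. Exon lengths and overlaps are from GENCODE vM21.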

Additional observations from a re-analysis of the deposited data

Results flagged for a closer look

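Lig1, the DNA ligase I gene, was the 1 member whose genotype effect differed between the lineages in a direct test. The effect in endoderm minus that in mesoderm was 0.89 on the log2 scale (SE 0.14, adjusted p = 0.00115, edgeR's quasi-likelihood interaction test). The log2 fold change, knockout over wild type, was -0.97 in mesoderm and -0.08 in endoderm. In wild type mesoderm all 3 libraries stood above the other 9.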

How the results depend on the processing

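Over the 43 members in both genotype comparisons, 9 of 18 calls held in every alternative, and 8 of 68 values that missed the threshold passed in at least 1. No call of a member named by the rule changed sign, while values that missed the threshold did so 7 times. Without knockout mesoderm library 3 the median of the E2F family in mesoderm went from 0.09 to -0.0023. With DESeq2 all genes called numbered 914 in endoderm, 1448 in mesoderm and 127 between the knockout lineages, and members called numbered 7 in mesoderm, 1 between the wild type lineages and 0 between the knockout lineages. With no filter on low counts, 377 genes were called in the interaction and 483 between the knockout lineages. The replicate number was not used in the main fit, which called 163 genes in the interaction and 216 between the knockout lineages. With it as a replicate block 255 genes were called in the interaction and 377 between the knockout lineages. Members called with the block were 9 in endoderm, 12 in mesoderm, 1 in the interaction, 2 between the wild type lineages and 1 between the knockout lineages. Same-numbered libraries correlated between -0.06 and 0.19, and 9 of 12 correlated best with their own number. Whether same-numbered libraries share a batch was not tested. Leaving out 1 library gave 4 to 10 members in endoderm, 7 to 12 in mesoderm, 1 to 1 in the interaction, 1 to 4 between the wild type lineages and 0 to 1 between the knockout lineages. Over all genes it gave 836 to 1704, 1472 to 2467, 104 to 354, 741 to 1391 and 59 to 315. The lowest counts came without wild type endoderm library 2, wild type mesoderm library 3, knockout mesoderm library 2, wild type mesoderm library 3 and knockout mesoderm library 3. The cause was not tested. Gins1, Gins3, Tk1 and E2f1 had 390 to 598 counts over the 12 libraries, which limits their precision.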

Other observations

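In the test of whether the genotype effect differed between lineages, 3 members were higher and 1 lower at an unadjusted p under 0.05. After Lig1 the smallest values were those of Prim2 (0.53, SE 0.21, adjusted p = 0.30), Mcm6 (0.31, SE 0.14, adjusted p = 0.43) and Rpa2 (-0.44, SE 0.20, adjusted p = 0.44), none of which passed the adjustment in edgeR. Outside the members, Orc4 and Mybl2 gave the calls between lineages among the replication and E2F lists: Orc4, an origin recognition subunit, was higher in wild type endoderm than in wild type mesoderm (0.42, SE 0.13, adjusted p = 0.0444), and Mybl2, a late cell cycle activator, was lower in knockout endoderm than in knockout mesoderm (-0.65, SE 0.13, adjusted p = 0.0109).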
